A study of Rattus norvegicus with 2 samples.

Results

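The genes of the membrane fusion machinery were examined in rat astrocytes that the design describes as with and without calcium signalling. The set comprised 41 named genes: SNARE proteins, synaptotagmins and other C2 domain proteins, SNARE chaperones and clamps, secretory Rab proteins and vesicle membrane proteins. They were chosen by name, with earlier results of these data known. Each was read through its brightest probe set that carried that gene symbol alone. Of the 41 genes, 38 had such a probe set, out of 14218 named genes on the array. Stx2, Snap47 and Slc17a9, the vesicular nucleotide transporter, had none and were not analysed here.

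The cells were cultured astrocytes from the hippocampus of Sprague-Dawley rat embryos at embryonic day 18, with a genotype given as normal. The control culture expressed IRES2-RFP, the vector with the red fluorescent protein alone. The second culture expressed 5ppase-IRES2-RFP by its description, while its transfection label reads 55ppase-IRES-RFP, and the design calls it a state with no calcium signalling, against active signalling in the control. The labels do not spell out 5ppase, which commonly stands for an inositol phosphate 5-phosphatase. The promoter of the construct and the share of cells that carried it were not found in the labels. RNA from each culture, 6 µg, went onto 1 Affymetrix array per group. There is therefore no replicate, no test and no p-value, every ratio below describes these 2 arrays alone, and the number of arrays limits the precision.

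SNARE proteins drive membrane fusion. A vesicle protein of the VAMP family zips together with a syntaxin and a SNAP protein on the target membrane, and the ATPase NSF with its SNAP adaptors later pulls the complex apart. In regulated exocytosis, Munc18 proteins, complexins and priming factors hold or prepare the complex, Rab3 and Rab27 proteins bring vesicles to the membrane, and synaptotagmins sense calcium. Astrocytes contain much of this machinery and release peptides, ATP and amino acids, and how far such release depends on calcium from internal stores is debated.

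Signals were MAS5 values in arbitrary units, with medians of 107 (control) and 109 (5ppase). Signals of 62.0 or less, the 40th percentile of both arrays together, were treated as too low to read, and this value is called the floor. Comparison of a gene required signals over this floor on each array and, on at least 1 of them, a signal of 208, the 60th percentile. This held for 26 of the 38 genes and for 8261 genes in all. A further 5 genes exceeded the floor on each array without reaching 208, 1 was above the floor on a single array and 6 were under it on both. The ratio of 5ppase to control is given on the log2 scale. As a gauge of measurement noise, the paired probe sets of 1492 genes with exactly 2 in the compared range had ratios that scattered with an SD of 0.26 per probe set, which leaves out differences between cultures.

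The cultures were checked against markers of the cell types they could hold. Gfap, the astrocyte intermediate filament, read 17525 (control) and 7408 (5ppase), a log2 ratio of -1.24, and the glutamate transporter Slc1a3 gave 864 and 569 (-0.60), whereas the astrocyte enzyme Aldh1l1 was near the floor (62.9 and 49.8). The summed signal of the 11 astrocyte markers on the array was 48310 in control and 27950 in 5ppase, and 6 of the 8 compared were at least 1.5-fold lower. Since many exocytosis genes are also neuronal, the 24 neuron markers matter here. Their summed signal was 14822 in control and 23040 in 5ppase, and most of the difference came from Stmn2. Of 7 compared, 3 were at least 1.5-fold higher and 1, Gad1 (998 and 422), that much lower, with 4 negative ratios and a median of -0.10. Stmn2 (3766 and 11066), Tubb3 (87.9 and 290) and Map2 (1737 and 1210) were readable, but 11 of the 24 were under the floor on both arrays, among them the neuronal splicing factor Rbfox3 (7.7 and 35.7). Fibroblast and meningeal markers summed to 136780 and 122935, a sum set mostly by collagens, Fn1 and Postn. Of the 8 compared, 6 had a negative and 2 a positive ratio. Mgp (1902 and 199) and Igfbp5 (2218 and 530) were at least 1.5-fold lower, and Postn (21161 and 14111, -0.58) fell just short of that. The oligodendrocyte lineage list summed to 3912 and 2250: Mog (8.2 and 9.8) was under the floor, but Cldn11 (1371 and 47.2), Pdgfra (1018 and 644), Cnp (996 and 737) and Cspg4 (262 and 630) were bright on at least 1 array. The microglial list summed to 1321 and 2619, most of it from Tmem119 (1078 and 2273), with Aif1 at 56.1 and 71.5. The endothelial list summed to 1681 and 958, most of it from Ocln (1212 and 384). Markers of these cell types other than Mog and Aif1 are named after their values were seen. No marker on any list was at 0, but neither was any probe set, the lowest signals being 0.1 in control and 0.2 in 5ppase.

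Most of the fusion machinery differed little between the arrays. Of the 26 compared genes, 22 (84.6%) differed by less than 1.5-fold, as did 89.3% of all genes compared. Rab27a alone was at least 1.5-fold higher in 5ppase, beside 5.25% of all compared genes. The genes at least 1.5-fold lower were the priming factor Cadps, the complexin Cplx2 and Rab27b, 3 of 26, beside 5.46% of all compared genes. Cadps alone was at least 2-fold lower, as were 1.42% of all compared genes, and none of the 26 was 2-fold higher, beside 1.5% of all compared genes. The median ratio of the 26 genes was -0.087, with 17 negative and 9 positive. That of all compared genes was -0.017, with 4305 negative and 3955 positive. With second probe sets, which 6 of the 26 genes had in the compared range, the median was 0.15, beside -0.023 over all genes. In these bulk cultures, fewer cells of a type and less RNA per cell cannot be told apart.

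**Figure D1:**
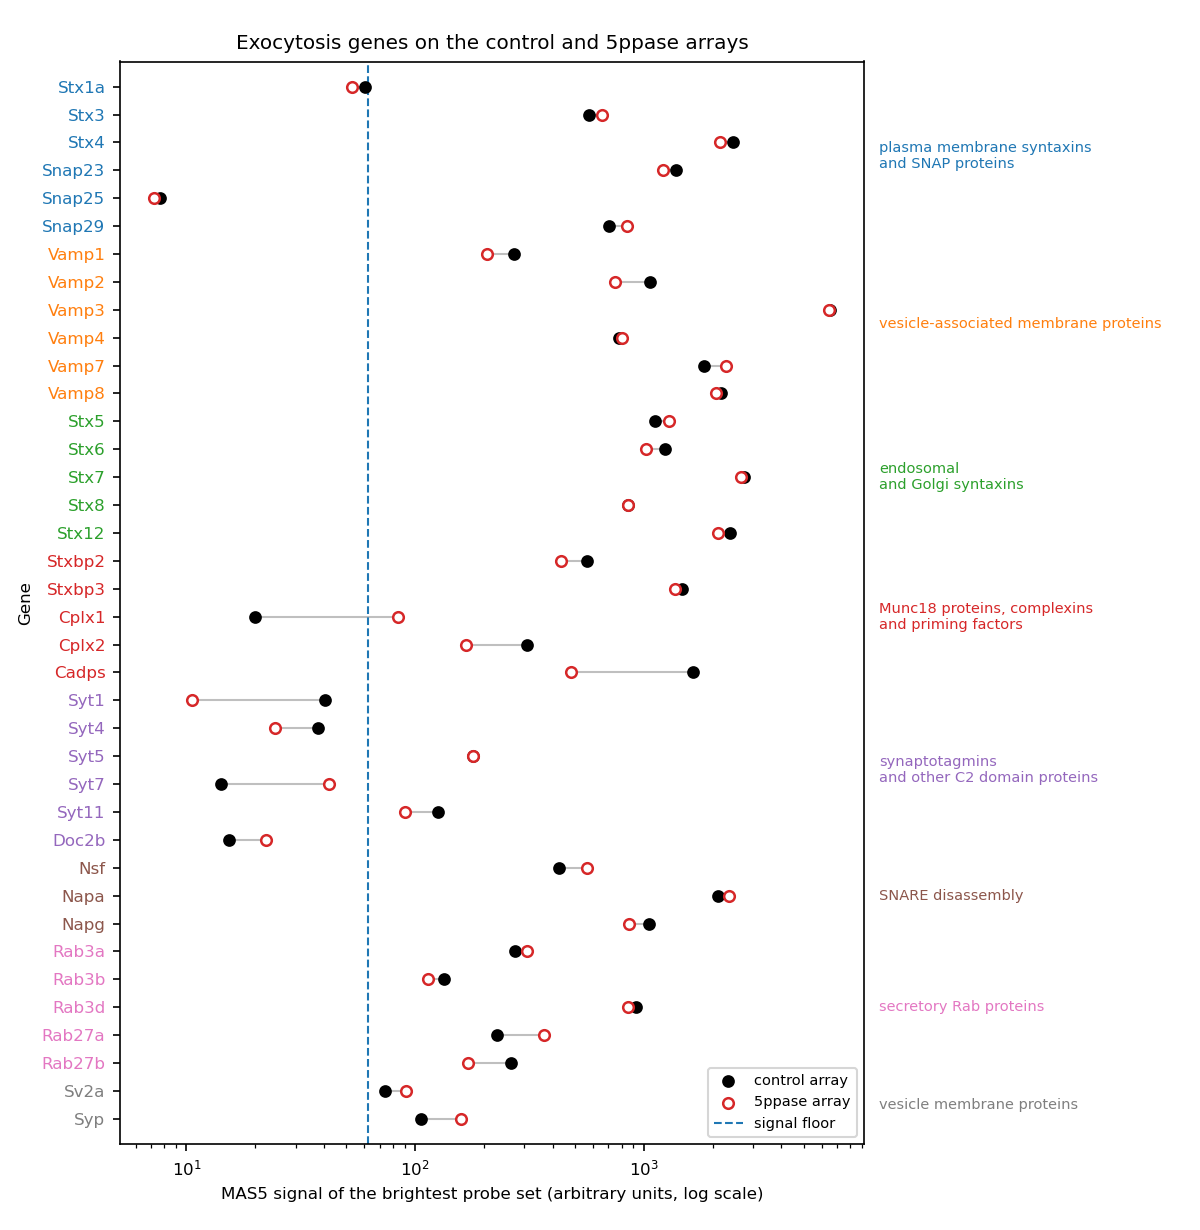
MAS5 signal (arbitrary units, log scale) of the brightest probe set of each of the 38 exocytosis genes on the control array (filled) and the 5ppase array (open), ordered by role, with the signal floor of 62.0 as a dashed line. Most pairs overlap or nearly so; Cadps, at 1639 and 480, is the widest pair above the floor, and Snap25, Syt1, Syt4, Syt7, Doc2b and Stx1a lie under it on both arrays.

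Priming factors, clamps and Munc18 proteins held the largest differences. Cadps encodes CAPS, a cytosolic protein that primes dense-core vesicles, the carriers of peptides, for fusion. Its signal was 1639 in the control culture and 480 in the 5ppase culture, a log2 ratio of -1.77 or 3.42-fold lower in 5ppase. Only 15 of the 8261 compared genes had a lower ratio. A second Cadps probe set was too dim to read (19.3 and 7.7), so no other probe set bears on this value, and averaging it in at the floor gave -0.89. Its paralog Cadps2 was also under the floor (3.6 and 8.1).

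Complexins bind the assembled SNARE complex and hold it until calcium arrives. Cplx2 read 307.5 in control against 167 in 5ppase (log2 ratio -0.88, 1.84-fold lower), from a single probe set of the _a_at kind, which reads several transcripts of the gene. Cplx1 went the other way at low signals, 19.9 in control, under the floor, and 84.3 in 5ppase, with a second probe set at 8.6 and 19.3. Neither reached 208, so no ratio is given. Of the Munc18 proteins, which chaperone syntaxins, Stxbp2 gave 563 and 434 (-0.37). Stxbp3, the Munc18c partner of syntaxin 4, gave 1463 and 1367 (-0.098). All 4 compared genes of this group had a negative ratio, as did 4305 of all 8261 compared genes. The ratio of Stxbp3 was smaller than the probe set scatter. Of the 8 compared astrocyte markers 6 were lower on the same array, Gja1 (0.072) and S100b (0.052) being close to equal, and their part in these ratios was not tested.

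The promoters of Cadps and Cplx2, the 2 genes with the lowest ratios, differed in composition. Sequences were taken from RefSeq (GRCr8), where 34 of the 41 genes had an entry, and each stretch is the 100 bases next before the annotated start, 5′ to 3′ on the strand of the gene, with CpG dinucleotides in capitals. The corresponding stretches of Rab27a and Rab27b, whose brightest probe sets differed in opposite directions at low signals, are shown beside them.
Cadps, chr15:14720626-14720725, plus strand: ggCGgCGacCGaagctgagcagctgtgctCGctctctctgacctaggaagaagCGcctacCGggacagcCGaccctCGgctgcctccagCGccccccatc
Cplx2, chr17:10236754-10236853, minus strand: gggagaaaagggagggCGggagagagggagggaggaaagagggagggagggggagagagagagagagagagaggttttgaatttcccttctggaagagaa
Rab27a, chr8:82663273-82663372, plus strand: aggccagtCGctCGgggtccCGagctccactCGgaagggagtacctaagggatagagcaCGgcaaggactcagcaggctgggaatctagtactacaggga
Rab27b, chr18:65938584-65938683, minus strand: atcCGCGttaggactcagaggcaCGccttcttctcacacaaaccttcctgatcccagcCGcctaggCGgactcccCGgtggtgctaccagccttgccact
Over the 250 bases before the start, Cadps had 25 CpG dinucleotides, Rab27a 16, Rab27b 9 and Cplx2 2. The median was 16 over the 34 exocytosis gene promoters and 5 over all 33469 promoters of the RefSeq set. That set was not limited to genes on the array. Thus the gene with the lowest ratio had a CpG-rich start and the gene after it a CpG-poor one.

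Secretory Rab proteins, small GTPases that tether vesicles, went in different directions. Rab27a read 228 in control against 365 in 5ppase (log2 ratio 0.68, 1.60-fold higher). Its other probe sets, dimmer, gave 155 and 176 (0.18) and 65.3 and 131 (1.01), all higher on the 5ppase array. Rab27b gave 263 and 171 (-0.62, 1.54-fold lower). Its second probe set was higher in 5ppase but lay on both sides of the floor (50.0 and 62.6). The paralogs thus differed by 1.30 in their log2 ratios at the brightest probe sets. With the mean of probe sets neither was compared, since their means did not reach the brightness limit.

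The Rab3 proteins sit on synaptic and secretory vesicles. Rab3a gave 275 and 308 (log2 ratio 0.16), with 211 and 285 (0.44) at its second probe set. Rab3d, found on granules of non-neuronal secretory cells, gave 924 and 854 (-0.11). Rab3b was dimmer, at 134 and 114 (-0.23). Of these Rab3 genes none was 1.5-fold apart.

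Ratios scattered more at low signals, which touches 3 of the 4 genes past 1.5-fold. Cplx2, Rab27a and Rab27b were in the dimmest 2066 compared genes by mean signal (137 to 415). There, 10.2% of genes were at least 1.5-fold higher and 11% that much lower. Cadps was among 2065 genes of higher mean signal (814.5 to 1871), where 2.91% were at least 1.5-fold lower and 0.63% at least 2-fold lower.

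**Figure D2:**
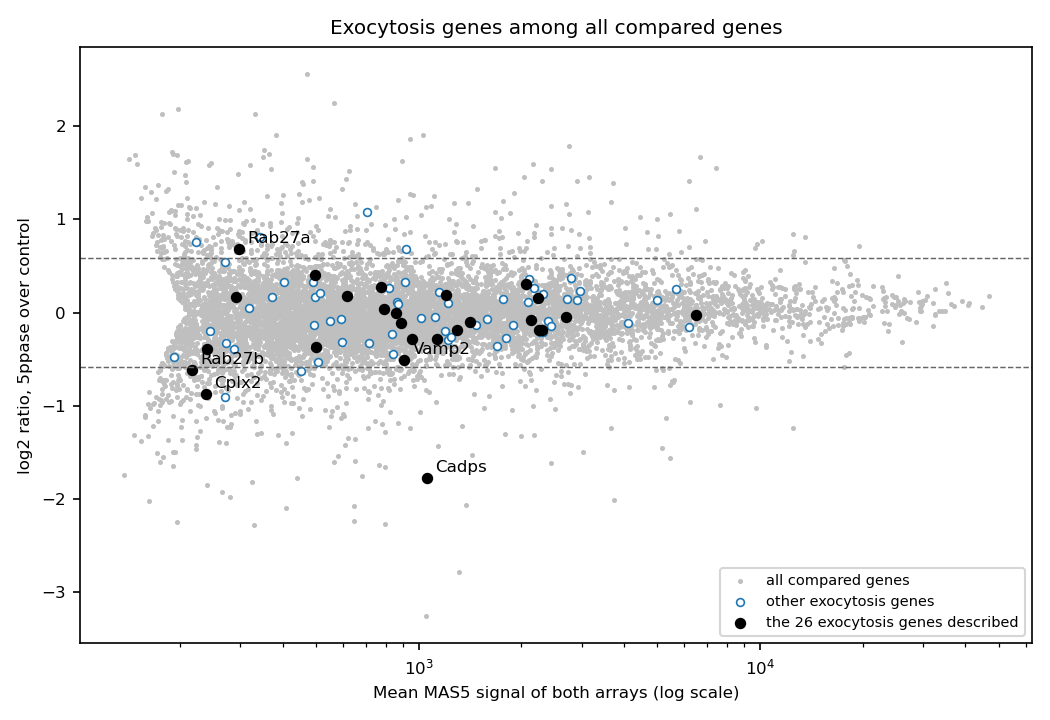
Log2 ratio of 5ppase to control against mean signal (log scale) for the 8261 compared genes (grey), the 58 compared genes of 4 lists of further exocytosis genes (open blue) and the 26 exocytosis genes described here (black); dashed lines mark 1.5-fold. Cadps, at -1.77, stands below the cloud at its signal, while Cplx2 (-0.88), Rab27b (-0.62) and Rab27a (0.68) lie in the wider part at low signal.

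Vesicle SNAREs of the VAMP family were compared for all 6 genes, and none was 1.5-fold apart. Vamp2, the synaptobrevin of synaptic and dense-core vesicles, had the largest difference, 1065 in control and 748 in 5ppase (log2 ratio -0.51, 1.42-fold lower). Its second probe set was under the floor (34.9 and 14.6), and with both averaged the ratio was -0.25. Vamp1, its close paralog, gave 271 and 207 (-0.39), and its dimmer probe sets gave 129 and 61.0, and 47.6 and 62.8, each with a value under the floor.

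The widely expressed family members were nearer to 0. Vamp3, or cellubrevin, a SNARE of recycling endosomes that can stand in for Vamp2, gave 6539 and 6442 (-0.022). Vamp8, of late endosomes and exocrine granules, gave 2185 and 2072 (-0.077). Vamp4, of the trans-Golgi network, gave 781 and 805 (0.043), with 356 and 430 (0.27) at a second probe set. Vamp7, a SNARE of late endosomes and lysosomes, was the only one whose brightest probe set had a ratio beyond 0.26 upward, 1843 and 2282 (0.31). The ratios of Vamp7 and Vamp2 were 0.82 apart.

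Plasma membrane syntaxins and SNAP proteins were divided into readable and unreadable forms. The neuronal target SNAREs were under the floor on both arrays: Snap25 gave 7.7 and 7.2, and Stx1a gave 60.1 and 52.8, with a second probe set at 10.4 and 7.8. Their widely expressed counterparts were bright. Snap23 gave 1377 and 1214 (log2 ratio -0.18), and 755 and 747 (-0.017) at its second probe set. Stx4, the plasma membrane syntaxin that pairs with Snap23, gave 2449 and 2148 (-0.19), and Stx3, of polarised and secretory cells, gave 577 and 654 (0.18; 147 and 202 at its second probe set). None of the ratios at the brightest probe sets exceeded the scatter of 0.26, while the dim second probe set of Stx3 gave 0.46.

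Snap29, a SNAP protein of autophagosome and endosome fusion, had probe sets that disagreed. The brightest gave 701 and 848 (0.27), a second one 93.9 and 67.9 (-0.47), and the dimmest was under the floor (53.5 and 40.6). Its direction therefore depends on the probe set.

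The syntaxins of endosomes and the Golgi were close to equal on the arrays. Stx7 (2754 and 2664, log2 ratio -0.048) and Stx8 (858 and 857, -0.0017), partners in late endosome fusion, differed least in this group; the sign of Stx8 turned under quantile normalization and after removal of a loess trend. Stx12, of recycling endosomes, gave 2395 and 2103 (-0.19), with 123 and 130 (0.085) at a dim second probe set. Stx5, of transport from the endoplasmic reticulum to the Golgi, gave 1124 and 1285 (0.19), with 506 and 512 (0.016) at its second probe set. Stx6, of the trans-Golgi network, was the exception to the small sizes: 1241 and 1023 (-0.28), and 278 and 171 (-0.70) at its second probe set, which was thus 1.5-fold lower where the first was not.

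Among the proteins that take SNARE complexes apart, Nsf gave the same direction at 3 probe sets. They gave 428 and 566 (log2 ratio 0.40), 393 and 501 (0.35), and 222 and 266 (0.26), all higher on the 5ppase array and all within 1.5-fold. Napa, or alpha-SNAP, its main adaptor, gave 2121 and 2363 (0.16). Napg, or gamma-SNAP, gave 1052 and 861 (-0.29), but 146 and 153.5 (0.072) at a dim second probe set. Nsf and Napg were thus 0.69 apart at their brightest probe sets.

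**Figure D3:**
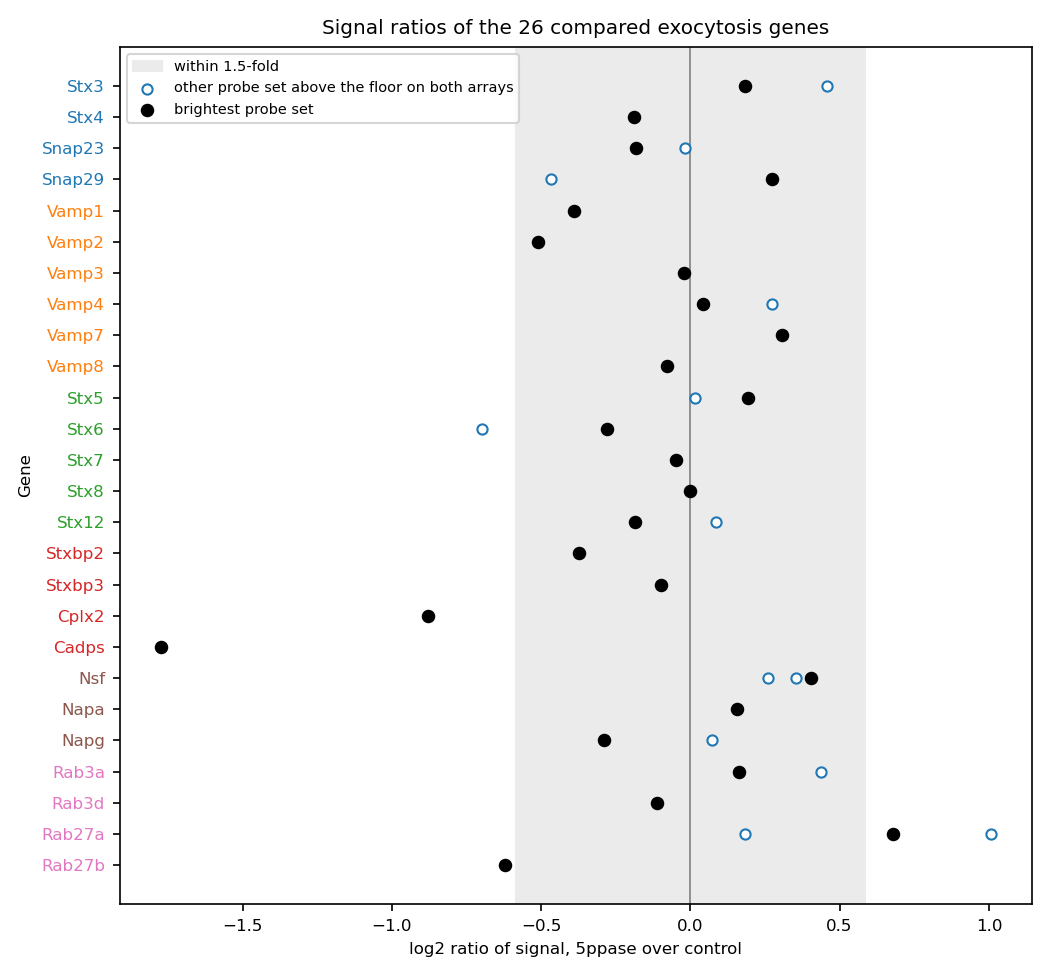
Log2 ratio of 5ppase to control for the 26 compared exocytosis genes at the brightest probe set (black) and at every other probe set above the floor on both arrays (open blue); the grey band is 1.5-fold in either direction. The 3 probe sets of Nsf lie together between 0.26 and 0.40, those of Snap29 lie on both sides of 0, and Cadps and Cplx2 have no second point.

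For 6 of the 26 genes a second probe set also lay in the compared range: Nsf, Rab3a, Snap23, Stx5, Stx6 and Vamp4. In all 6 it had the sign of the first, beside 65.6% of all 1883 genes with such a pair. None of the 4 genes past 1.5-fold was among these 6.

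Synaptotagmins and the related Doc2b, a group that includes the calcium sensors of release, gave no compared gene out of 6. Syt1, the fast sensor of synaptic vesicles (40.5 and 10.6), Syt4 (37.8 and 24.4), the high-affinity sensor Syt7 (14.1 and 41.9) and Doc2b (15.4 and 22.2) were under the floor on both arrays at their brightest probe sets. All further probe sets of Syt4 and Syt7 were under the floor too. Syt5 gave 179 on each array, a log2 ratio of 0. Syt11, a family member that does not bind calcium, gave 127 and 90.0 (-0.49). A signal under the floor is not a detection call, so these values do not show that a transcript was absent.

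The vesicle membrane proteins were also dim. Syp, or synaptophysin, an abundant protein of synaptic vesicles, gave 106 and 159 (log2 ratio 0.58), and Sv2a gave 73.5 and 91.1 (0.31), both under the brightness limit on each array. Both were higher in 5ppase. The neuron markers went both ways, with a higher sum set mostly by Stmn2 and a median of -0.10 over the 7 compared, and their part in these values was not tested; Syn1, a further synaptic vesicle protein, gave 144 and 119 (-0.28).

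Promoter windows of 300 bases, which include 50 bases after the start, were searched on both strands for TGACGTCA, the cAMP and calcium response element, and TTCAGCACC, part of the RE1 element of neuronal genes. The first is its own reverse complement and occurred in the windows of 2 of 34 exocytosis genes, Vamp1 and Napa. It was in 1.83% of all promoters, again not limited to genes on the array. Those stretches of 100 bases (GRCr8) are shown because they hold the match, in capitals.
Vamp1, chr4:159698777-159698876, plus strand: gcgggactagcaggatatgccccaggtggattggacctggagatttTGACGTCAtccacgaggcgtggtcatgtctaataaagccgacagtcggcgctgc
Napa, chr1:85915330-85915429, plus strand: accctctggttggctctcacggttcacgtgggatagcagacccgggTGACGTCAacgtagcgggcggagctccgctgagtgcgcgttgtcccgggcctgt
The match begins 71 bases before the start in Vamp1 and 59 before it in Napa. Their ratios were -0.39 and 0.16, so the genes with the element differed in opposite directions and by less than 1.5-fold. TTCAGCACC was in none of the 34 windows and in 0.356% of all promoters, which says only that these letters are not in those windows.

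Further genes of the same machinery, 124 in 4 lists, gave 111 with a probe set and 58 compared. In this set 4 genes passed 1.5-fold upward and 2 downward, 6 of 58 together, beside 10.7% of all compared genes, and the median was -0.056. Among 23 other SNAREs and SNARE binding proteins, only Vps33a, a Munc18-like protein of the tethering complexes of late endosomes, passed 1.5-fold (550 and 356, log2 ratio -0.63), and its second probe set gave 272.5 and 276.5. Among 7 other synaptotagmin-like and C2 domain genes, the membrane repair protein Dysf gave 704 and 1131 (0.68; 0.71 at its second probe set) and Esyt1, a tether between the endoplasmic reticulum and the plasma membrane, gave 166 and 279 (0.75). Of the priming factors on that list, none of the Unc13 and Rims genes was compared: Unc13c, Unc13d, Rims1 and Rims2 were under the floor on both arrays, Unc13a (62.2 and 10.2) and Rims3 (74.7 and 49.1) were above it in control alone, and Unc13b gave 95.6 and 78.0 (-0.29).

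Among 16 exocyst subunits and Rab regulators, Myo5a, the myosin that carries Rab27-bound vesicles, gave 249 and 438 (0.82), and the others lay within 1.5-fold. The largest differences were in 12 other vesicle membrane proteins. Synpr, or synaptoporin, a relative of synaptophysin, gave 452 and 956 (1.08) and, at its second probe set, 279 and 613 (1.14). The vesicular zinc transporter Slc30a3 gave 353 and 188 (-0.91). The remaining 10 genes of that list lay within 1.5-fold. Esyt1, Myo5a and Slc30a3 had no other probe set. By mean signal they were among the dimmest compared genes (137 to 415). In that range 10.2% of genes were at least 1.5-fold higher and 11% that much lower.

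**Figure D4:**
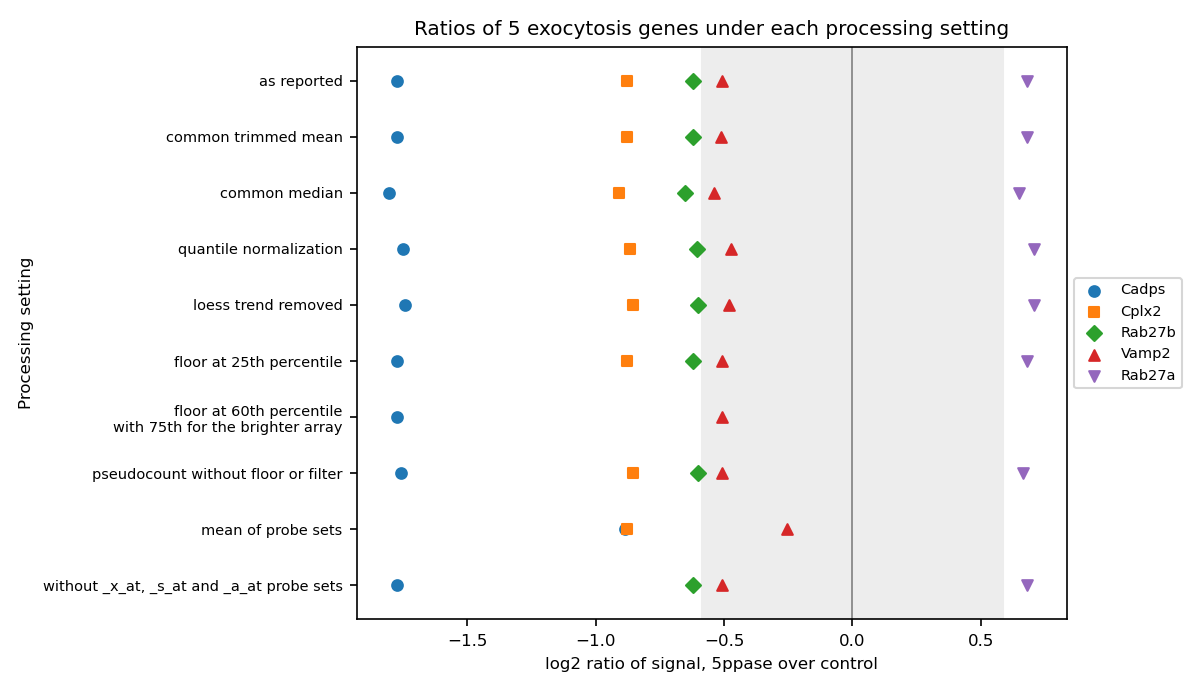
Log2 ratio of 5ppase to control for Cadps, Cplx2, Rab27b, Vamp2 and Rab27a as reported and under 9 other processing settings; the grey band is 1.5-fold in either direction, and a missing point means that the gene was not compared under that setting. The order of the genes holds throughout the settings that change only the scaling. A common median or trimmed mean shifts all ratios by the same amount, so it cannot change that order. Averaging probe sets moves Cadps from -1.77 to -0.89 and Vamp2 from -0.51 to -0.25.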

How the data were processed

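Each array holds 1 deposited linear intensity for each probe set. The submitters' processing notes name MAS5 as the tool the authors used, without version or settings. Both arrays had a trimmed mean of 500.2 (2% removed at each end), and the values were used as deposited. Of 31099 probe sets, 20832 carried 1 gene symbol in the platform annotation, which can be old, 436 several and 9831 none; only the first kind was used, with symbols updated by gene identifier. The brightest probe set stood for a gene, and all others were listed. Signals of genes were set against the floor and the brightness limit, and those of markers were summed. These uses do not rank transcript levels between genes. The exocytosis genes and the gene lists were chosen with earlier results of these data known. Genes were named by rule: each exocytosis gene, of the lists of further exocytosis genes those at least 1.5-fold apart, at most 4 per list, and a fixed set of defining cell type markers; Cadps2, the Unc13 and Rims genes, further cell type markers, Syt17 and Sytl2 were chosen after their values were seen. Signals were raised to the floor before log2. Alternatives were other scalings, floors, a pseudocount, probe set choices and a 2-fold threshold. The step from signals to compared genes and ratios was tested on simulated data with a single probe set per gene. The scalings, the choice among probe sets and the promoter steps were not tested in this way. Python 3.11.15, numpy 2.4.6, pandas 2.3.3 and statsmodels 0.14.6 were used. The number of unused sample columns was 0.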

Additional observations from a re-analysis of the deposited data

How the results depend on the processing

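No paired analysis was possible because each group has 1 array. The count of exocytosis genes at least 1.5-fold higher (1 as reported) was 0 with a 2-fold threshold, with the floor at the 60th percentile, with the mean of probe sets and with second brightest probe sets, and 3 with a pseudocount and no filter, where Cplx1 and Syt7, both dim, joined Rab27a. The count lower (3) was 1 with a 2-fold threshold, with the 60th percentile floor (Cadps in both) and with second probe sets (Stx6), 2 with the mean of probe sets (without Rab27b), 2 without _x_at, _s_at and _a_at probe sets (without Cplx2, which has only such a probe set) and 4 with the pseudocount, where Syt1, also dim, joined. Of the other exocytosis genes, 6 of 58 were apart as reported and 1 with a 2-fold threshold. With the 60th percentile floor 3 of 45 were, and with the pseudocount 34 of 111. The shares of all compared genes moved too. With the pseudocount 14.1% were higher and 12.5% lower, beside 5.25% and 5.46% as reported. With the 60th percentile floor they were 3.86% and 3.81%. With averaged probe sets they were 4.93% and 4.34%, with second probe sets 6.11% and 6.69%, and past 2-fold 1.5% and 1.42%. Without _x_at, _s_at and _a_at probe sets they were 5.17% and 5.43%. Under the 4 other scalings, the median ratio ranged from -0.12 to -0.076, and Rab27a, Cplx2, Cadps and Rab27b were the genes past 1.5-fold in each. Across the same scalings the median of all compared genes moved too, from -0.048 (common median) to -0.0071 (quantile normalization). Over single genes, 226 of the values under alternatives stayed within 0.26 of the reported ratio and 3 did not: Cadps with averaged probe sets (-0.89), and Stx6 (-0.70) and Rab3a (0.44) at second probe sets. Many of the 226 could not move. Another floor leaves the ratio of a gene still compared as it was, and averaging leaves that of a gene with 1 probe set. The common trimmed mean changed almost nothing, because both arrays already had 500.2. Cadps, Cplx2, Rab27a and Rab27b had no second probe set in the compared range. The stricter floor and the second probe sets leave 21 and 6 exocytosis genes. Without replicates, differences between cultures cannot be gauged, and signals near the floor limit the synaptotagmins.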

Other observations

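Syt17, a synaptotagmin relative, read 599 in control against 413 in 5ppase (log2 ratio -0.53) at its brightest probe set, and 232 and 76.7 (-1.60) at a second one; it was chosen after its values were seen. Sytl2, a synaptotagmin-like partner of Rab27 proteins, chosen in the same way, gave 6533 and 5854 (-0.16). Vps33a had 5 probe sets that disagreed in direction, with -0.63, 0.021, -0.68 and 0.93 at the 4 that lay above the floor on both arrays.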
